A study of Mus musculus with 15 samples.

Results

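The data described here are the peaks around 3 genes of the Notch pathway in mouse intestinal epithelium. The genes are the ligand genes Dll1 and Dll4 and the Notch target gene Hes1. Every peak of 12 deposited lists was taken that overlapped a window of the mm9 genome around each gene, namely chr17:15480000-15540000 for Dll1 (60 kb), chr2:119125000-119190000 for Dll4 (65 kb) and chr16:30040000-30095000 for Hes1 (55 kb). The windows held 474 of the 778471 peaks of all lists, 148 at Dll1, 150 at Dll4 and 176 at Hes1. The rule that picks the peaks uses position alone.

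The lists came from chromatin immunoprecipitation sequencing of H3K4me2 (7 libraries), a mark of promoters and enhancers, of H3K27ac (2 libraries), a mark of active ones, and of the transcription factor ATOH1 (1 library), and from DNase-seq (2 libraries), which gives DNase I hypersensitive sites (DHS), the stretches of open chromatin. All mice were C57BL/6. Secretory progenitors (Sec-Pro) were enriched in crypts by blocking Notch signalling. This was done by deletion of Rbpj for one H3K4me2 library and with the inhibitor dibenzazepine (DBZ) for the other. The labels do not say which of these preparations served for H3K27ac, DHS and ATOH1, and ATOH1 was precipitated with a FLAG antibody. Goblet cells (GOB, 1 H3K4me2 library) came from villi of Rbpj-/- mice. Enterocyte progenitors (Ent-Pro, 2 H3K4me2 libraries) and enterocytes (ENT, 1) came from crypts and villi of Atoh1-/- mice, which have no secretory cells. Stem cells (ISC, 1) were sorted by flow cytometry for the green fluorescent protein of Lgr5-eGFP-Cre mice. For Sec-Pro, GOB, Ent-Pro and ENT the labels name no sort, so lineage cannot be told apart from the deletion or the inhibitor. Fewer cells of a type and less mark per cell cannot be told apart in such bulk lists either.

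Notch signalling passes between touching cells. Ligands such as DLL1 and DLL4 on one cell bind Notch receptors on its neighbour, a receptor fragment is cut free and joins RBPJ on DNA, and targets such as Hes1 are switched on. HES1, a basic helix-loop-helix repressor, keeps Atoh1 silent in absorptive cells of the intestinal crypt, and ATOH1, itself a basic helix-loop-helix activator required for all secretory cells, is known to drive the ligand genes in cells that escape Notch. In the mouse intestine DLL1 and DLL4 on secretory cells also sustain the stem cells beside them. Deletion of Rbpj takes away the DNA-binding partner of Notch, and DBZ blocks the cut that frees the fragment.

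The promoters of the ligand genes are shown because ATOH1 binds E-boxes, the letters CANNTG, and RBPJ binds DNA with the core letters TGGGAA. They are RefSeq sequences of build GRCm38.p6, from 250 bases before a transcription start to 50 after it, each read 5′ to 3′ on the strand of its gene, with every E-box in capitals. Dll1 has 2 starts in that table, at chr17:15376883-15377182 and chr17:15375774-15376073 on the minus strand, and Dll4 has 1, at chr2:119325534-119325833 on the plus strand.
Dll1 start 2: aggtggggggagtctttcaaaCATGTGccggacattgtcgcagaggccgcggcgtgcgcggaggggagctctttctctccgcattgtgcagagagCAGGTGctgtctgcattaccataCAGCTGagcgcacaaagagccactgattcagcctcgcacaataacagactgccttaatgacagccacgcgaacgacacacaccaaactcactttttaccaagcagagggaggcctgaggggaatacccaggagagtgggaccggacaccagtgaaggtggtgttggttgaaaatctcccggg
Dll1 start 1: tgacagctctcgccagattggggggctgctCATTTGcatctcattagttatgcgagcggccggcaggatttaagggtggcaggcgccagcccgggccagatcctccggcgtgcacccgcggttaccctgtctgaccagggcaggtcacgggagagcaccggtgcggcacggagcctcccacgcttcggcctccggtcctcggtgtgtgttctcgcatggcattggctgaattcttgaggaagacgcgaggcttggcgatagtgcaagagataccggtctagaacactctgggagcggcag
Dll4 start 1: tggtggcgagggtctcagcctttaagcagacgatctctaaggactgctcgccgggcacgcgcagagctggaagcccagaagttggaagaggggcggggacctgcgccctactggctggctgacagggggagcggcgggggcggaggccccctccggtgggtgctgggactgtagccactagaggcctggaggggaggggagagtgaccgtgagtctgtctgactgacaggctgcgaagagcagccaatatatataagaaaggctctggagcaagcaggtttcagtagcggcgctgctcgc
The Dll1 promoter at start 2 held 3 E-boxes, the last of them CAGCTG, the promoter at start 1 held 1, and the Dll4 promoter held none. Of 32851 promoters of the same length in that table, 72.3% held an E-box and 16.3% held the E-box CAGCTG. None of these promoters held TGGGAA on either strand, which 25.6% of all promoters did. These coordinates are of another build than the peaks and were not placed among them. In the same RefSeq table the nearest genes on the chromosome are Gm10510 and Fam120b for Dll1, Gm14207, which overlaps the gene, and Chac1 for Dll4, and 9030404E10Rik and Gm32998 for Hes1. No mm9 annotation was used here, so peaks are given by position and not as promoter, exon or intron, and other Notch pathway genes were not analysed here.

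The lists held between 15240 peaks (ATOH1) and 92279 peaks (Sec-Pro H3K4me2 under DBZ), and read numbers were not given. Some lists, those of ISC, Sec-Pro under DBZ, Ent-Pro replicate 1, GOB and ENT, had a shortest H3K4me2 peak of 146 bp. Those of Rbpj-/- Sec-Pro and Ent-Pro replicate 2 had one of 200 bp, so 1 library of each progenitor was of each kind, and values within a kind stand beside the pooled ones. Each list carries the authors' own score per peak, which is used here only to rank peaks within a list. The ISC list stood apart: the other H3K4me2 lists covered 57 to 75 Mb, against 33.4 Mb in ISC, and their highest scores were 218 to 321, against 37.7 in ISC. Peaks of 8 of the 12 lists crossed the left edge of the Dll1 window and peaks of 1 list crossed that of each other window, and no peak crossed a right edge. At the left edge of the Dll1 window the nearest GOB peak wholly outside lay 0.146 kb away with a score of 5.6, and the GOB peak across the edge had a score of 16.3.

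All 3 loci carried H3K4me2 in every population, including those in which Notch was blocked. The peaks of the 7 H3K4me2 lists joined into 55 regions, and 16 of them were marked in all 7 lists (over the whole genome 24.5% of regions were). The peaks of the 4 progenitor lists alone joined into 41 regions. Of these, 0 were shared by the Sec-Pro libraries and absent from both of Ent-Pro, and 0 shared by the Ent-Pro libraries and absent from both of Sec-Pro. Such regions are rare over the genome too (0.655% and 1.11%), so these counts do not set the loci apart from it. The median 60 kb tile of the genome with any H3K4me2 was covered to at most 3.77% (Sec-Pro under DBZ) and at least 1.5% (ISC), well under every value at the 3 loci. The windows were placed on genes and the tiles were not, so that gap describes the loci and is no test.

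At Dll1, one of the ligand genes, H3K4me2 peaks covered 20.6% of the window in Rbpj-/- Sec-Pro and 26.7% in Sec-Pro under DBZ, against 23.9% and 19.9% in Ent-Pro replicates 1 and 2. The libraries of the progenitors overlapped in range. Sec-Pro averaged 23.7% ± 4.3 and Ent-Pro 21.9% ± 2.82 (SD, n = 2 each), a difference of 1.76 points that was smaller than the spread within Sec-Pro. That spread is not one of like replicates. The libraries of each progenitor differ in kind of list, and those of Sec-Pro also in how Notch was blocked. In each progenitor the 146 bp library was the more widely covered in all 3 windows. Within lists of the same kind Sec-Pro was higher by 0.712 points (200 bp) and by 2.81 points (146 bp). A two-sided exact permutation test gave p = 0.667 (1 after Benjamini-Hochberg adjustment over the 3 windows), and with 2 libraries against 2 it cannot go below 0.333. The permutation took no account of the kind of list. Over the genome, 4.67% of tiles were covered more in both Sec-Pro than in both Ent-Pro lists and 5.19% less, and none of the 3 windows was either.

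At Dll4, the other ligand gene, the covered share was 18.8% in Rbpj-/- Sec-Pro and 26.3% in Sec-Pro under DBZ, against 25.3% and 21.1% in Ent-Pro replicates 1 and 2. The lowest and the highest of these values both belonged to Sec-Pro. The means were 22.6% ± 5.37 in Sec-Pro and 23.2% ± 2.99 in Ent-Pro (SD, n = 2 each), a difference of -0.672 points (exact permutation test, p = 1, adjusted p = 1). The sign turned with the kind of list, at -2.35 points in the 200 bp lists and 1.01 points in the 146 bp lists.

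Hes1, the target of the signal, was the most widely marked of the 3 loci in both Sec-Pro and both Ent-Pro libraries. H3K4me2 covered 31.1% of the window in Rbpj-/- Sec-Pro and 39.9% in Sec-Pro under DBZ, against 41.3% and 31.4% in Ent-Pro replicates 1 and 2. Sec-Pro averaged 35.5% ± 6.24 and Ent-Pro 36.4% ± 6.98 (SD, n = 2 each), which differed by -0.875 points (exact permutation test, p = 0.667, adjusted p = 1). Within a kind of list the differences were -0.351 points (200 bp) and -1.4 points (146 bp), each from 1 library per progenitor. With GOB counted with Sec-Pro and ENT with Ent-Pro, 3 libraries against 3, the differences were 0.899 points at Dll1, 4.12 at Dll4 and 0.17 at Hes1 (exact permutation test, p = 0.7, 0.7 and 1, with 0.1 the smallest p possible). Crypt progenitors and villus cells are different populations and not replicates of 1 condition. At Dll4 the progenitors alone differed by -0.672 points and GOB from ENT by 13.7, so the pooled value there came from the villus libraries.

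**Figure D1:**
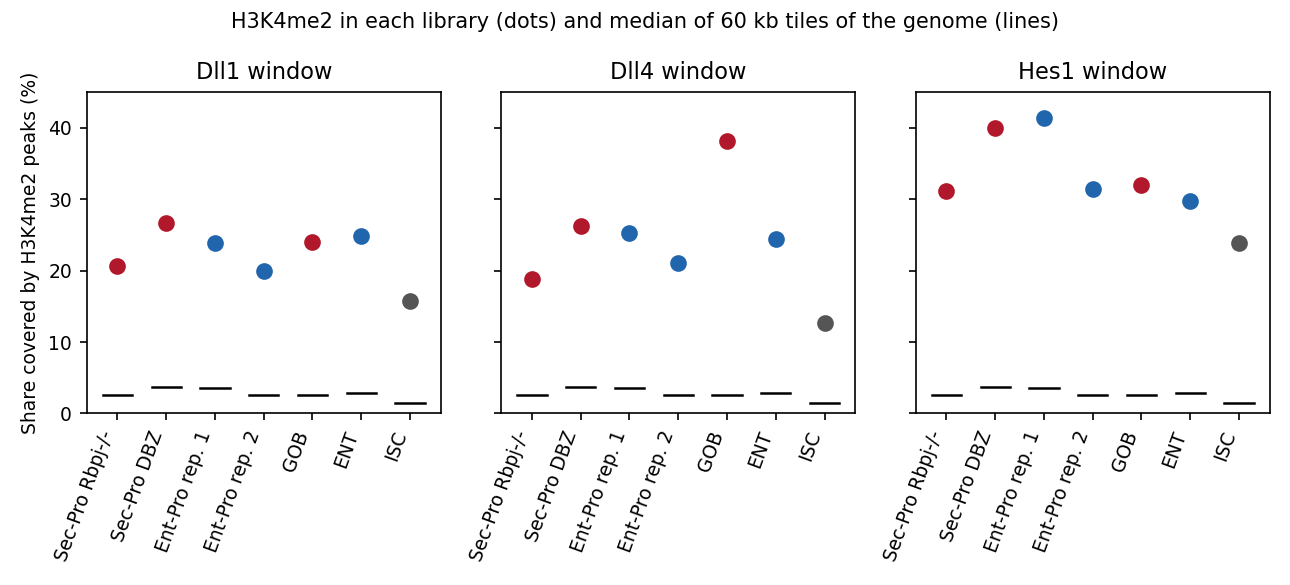
Share of each window covered by H3K4me2 peaks (%) in each of the 7 libraries (dots; red, Notch blocked; blue, Atoh1 deleted; grey, ISC), with the median 60 kb tile of the genome for the same list as a line. Sec-Pro and Ent-Pro libraries overlap in all 3 windows, GOB stands at 38.1% in the Dll4 window against 24.4% in ENT, and ISC is the lowest dot in each.

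The progenitor libraries shared most of the bases their peaks marked. Of the bases marked in either Rbpj-/- Sec-Pro or Ent-Pro replicate 2, the share marked in both was 0.85 at Dll1, 0.773 at Dll4 and 0.731 at Hes1, against 0.742 over the whole lists. Between Sec-Pro under DBZ and Ent-Pro replicate 1 that shared fraction was 0.791, 0.744 and 0.842 in the same order of genes, against 0.752. These pairs are each of 1 kind of list. Pairs within a progenitor mix the kinds, and there the shared fraction was 0.702, 0.673 and 0.71 between the Sec-Pro libraries (0.654 over the whole lists) and 0.808, 0.79 and 0.72 between the Ent-Pro libraries (0.688).

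Each locus had 1 long block that was marked in all 7 lists. At Dll1 it ran over chr17:15508323-15514755, and its longest peak was 5828 bp in Rbpj-/- Sec-Pro, 5656 bp in Sec-Pro under DBZ, 6007 bp in Ent-Pro replicate 1, 5521 bp in Ent-Pro replicate 2, 5722 bp in GOB, 5663 bp in ENT and 2869 bp in ISC. These lengths were close to each other in all but the ISC library. At Hes1 the block, chr16:30059188-30071419, was covered to 81.8% and 95.7% in Rbpj-/- Sec-Pro and Sec-Pro under DBZ, 95.6% in Ent-Pro replicate 1, 76.7% in Ent-Pro replicate 2, 79.1% in GOB, 72.8% in ENT and 59.3% in ISC. The longest peak there was between 5092 bp and 5158 bp in all 4 progenitor libraries, 6351 bp in GOB, 5344 bp in ENT and 1379 bp in ISC. The highest-scoring H3K4me2 peak of the Hes1 window ranked within the top 0.267% to 0.747% of the 4 progenitor lists, which includes both libraries with Notch blocked.

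Of the 3 loci, Dll4 differed most between the villus populations. H3K4me2 covered 38.1% of the window in GOB and 24.4% in ENT, a gap of 13.7 points, whereas the gap was -0.822 points at Dll1 (24% in GOB, 24.8% in ENT) and 2.26 points at Hes1 (32% in GOB, 29.7% in ENT). The sign at Dll1 was not stable: it turned to 0.715 points in the upper 50% of peaks by score and to 1.21 points with 10 kb off either window end. Each group has 1 library, so no test was possible. Over the genome GOB was the more widely covered in 40.1% of 18773 tiles, with a median gap of -0.243 points, and 25 tiles (0.133%) had a gap as large as that at Dll4. The median tile with H3K4me2 in any list was covered to 2.62% in GOB, too little for such a gap. Only 0.558% of those tiles were covered as widely in GOB as the Dll4 window. Dll4 was also picked as the widest gap of the 3 windows, so the tile share describes the locus and is no test.

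In the Dll4 block, chr2:119146174-119157181, GOB had 1 unbroken peak of 10986 bp with a score of 211, and ENT had 4 peaks that covered 7482 bp. The progenitor libraries lay between 6931 bp (Rbpj-/- Sec-Pro) and 9486 bp (Ent-Pro replicate 1), and ISC had 10 peaks that covered 5994 bp. Across the window GOB marked 9774 bp that ENT did not, and ENT marked 862 bp that GOB did not. Of the GOB bases, 4954 lay in no other H3K4me2 list. Of the 21 GOB peaks at Dll4, 11 had no ENT peak over them, and over the 3 windows 20 of 56 GOB peaks had none (24.8% of all GOB peaks), against 9 of 45 ENT peaks without GOB (29.2% of all ENT peaks). Most of the added GOB peaks were weak: 2 of the 11 were in the upper 50% of the GOB list by score, and the 9 that were in no other H3K4me2 list had scores from 2.81 to 15.3, where the GOB list has a median of 11.5. The higher-scoring of those 2, chr2:119159496-119161031 with a score of 23.6, was also marked in both Sec-Pro libraries and in Ent-Pro replicate 1.

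**Figure D2:**
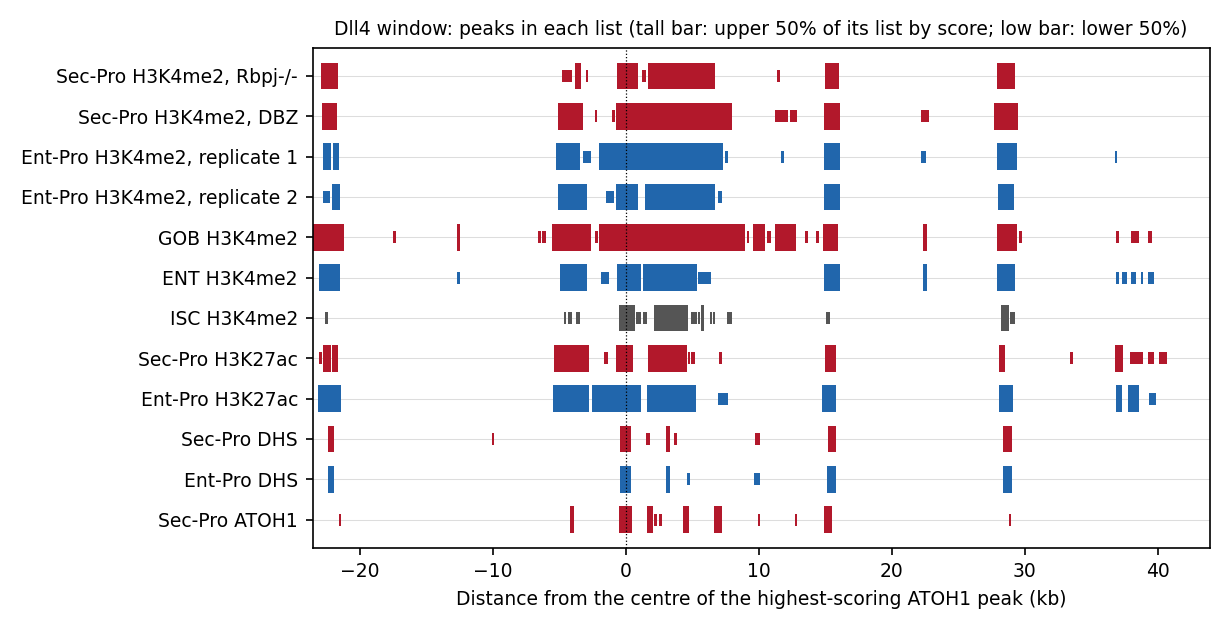
Peaks of the 12 lists in the Dll4 window, by distance (kb) from the centre of the highest-scoring ATOH1 peak (dotted line); tall bars are in the upper 50% of their list by score and low bars in the lower 50%, red marks Sec-Pro and GOB, blue Ent-Pro and ENT, grey ISC. GOB has 1 peak of 10986 bp over the centre where ENT has 4 peaks, and to the right of it bars that ENT lacks, 2 of them tall and the others low.

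ISC had the smallest covered share of H3K4me2 at each locus, by a margin that at Hes1 depended on how peaks were joined. The 6 other libraries covered 23.3% of the Dll1 window on average, against 15.8% in ISC. At Dll4 the mean of the others was 25.7% and the share in ISC 12.6%, and at Hes1 the mean of the others was 34.2% and the share in ISC 23.9%. With peaks within 1 kb merged, the gap at Hes1 shrank to 0.575 points, against 10.4 points without merging. Without merging, the ISC value was below each of the other 6 libraries at all 3 loci, and its whole list covered fewer bases too, as given above. Of 57 ISC peaks, 44 were overlapped by all 6 other lists, near the share of 72.3% among all ISC peaks. By gene these were 10 of 11 at Dll1, 15 of 17 at Dll4 and 19 of 29 at Hes1. GOB overlapped 53 and ENT 50 of the 57.

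H3K27ac was present at all 3 loci in both progenitors. It covered 21.5% of the Dll1 window in Sec-Pro and 19.6% in Ent-Pro, 20.4% of the Dll4 window in Sec-Pro and 25.3% in Ent-Pro, and 35% of the Hes1 window in Sec-Pro and 32.2% in Ent-Pro. There is 1 library per group and hence no test. Of 49 Sec-Pro peaks 11 had no Ent-Pro peak over them (20.2% of the whole Sec-Pro list), and of 33 Ent-Pro peaks 1 had no Sec-Pro peak (22.6% of the whole Ent-Pro list). The Ent-Pro count was 6 where 50% of a peak had to be overlapped and 2 with lists of equal length. At an overlap of 1 bp the Ent-Pro exception lay across the left edge of the Dll1 window and had a score of 7.57. Of the 11 in Sec-Pro alone, 1 was in the upper 50% of its list, chr16:30059200-30059742 at Hes1, with a score of 13 and rank 32358 of 74483. The shared peaks include the highest-scoring ones: at Dll1, the peak chr17:15511045-15514330 ranked within the top 1.97% in Sec-Pro, and chr17:15511162-15514283 within the top 6.74% in Ent-Pro. At Hes1, chr16:30065392-30067706 was in the top 1.51% in Sec-Pro and chr16:30065394-30067824 in the top 6.38% in Ent-Pro. At Dll4 the order was the other way, with the highest-scoring peak in the top 6.6% in Sec-Pro and in the top 5.67% in Ent-Pro. H3K27ac peaks therefore lay in the Hes1 window in the Sec-Pro library, from crypts with Notch blocked, as well as in the Ent-Pro library. Which cells of these bulk preparations carried the mark cannot be told.

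DHS were mostly shared by the progenitors and differed at a few positions. Sec-Pro had 7, 9 and 4 DHS at Dll1, Dll4 and Hes1, and Ent-Pro had 7, 7 and 6. Of 20 Sec-Pro DHS 4 had no Ent-Pro DHS over them (14.6% of the whole list), and of 20 Ent-Pro DHS 4 had no Sec-Pro DHS (29.8%). ATOH1 peaks overlapped 2 of those 4 in Sec-Pro and all 4 in Ent-Pro (6.15% and 6.06% of such DHS over the genome). They also overlapped 10 of the 16 shared DHS in either list (16.7% of shared DHS over the genome in the Sec-Pro list and 16.9% in the Ent-Pro list), so the overlap was common to both classes at these loci. In the upper 50% of their list by score were 1 of the 4 in Sec-Pro and 2 of the 4 in Ent-Pro, and each of these 3 overlapped an ATOH1 peak.

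At Dll1, the DHS in Sec-Pro alone was chr17:15508941-15509167, with a score of 25.6 in the top 44.6% of its list, and the nearest Ent-Pro DHS was 2.43 kb away. It lay under chr17:15508869-15509242, the highest-scoring ATOH1 peak of the window. At Hes1, the 2 DHS in Ent-Pro alone were chr16:30050938-30051219 (score 30.2, top 36.6%) and chr16:30045806-30046103 (score 16.9, top 49.1%). The nearest Sec-Pro DHS were 12.2 kb and 17.3 kb away. The DHS with the higher score lay under chr16:30050962-30051392, the highest-scoring ATOH1 peak of the Hes1 window. The top ATOH1 site was thus hypersensitive in Sec-Pro alone at Dll1 and in Ent-Pro alone at Hes1, whereas at Dll4, the other ligand gene, it was hypersensitive in both. ATOH1 was mapped in Sec-Pro, and Ent-Pro lack Atoh1. The DHS shared by the progenitors were strong in both at Hes1: chr16:30063384-30064605 had a score of 131 in Sec-Pro and rank 3863 of 31980, and chr16:30063340-30064611 a score of 155 in Ent-Pro and rank 3453 of 38595.

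**Figure D3:**
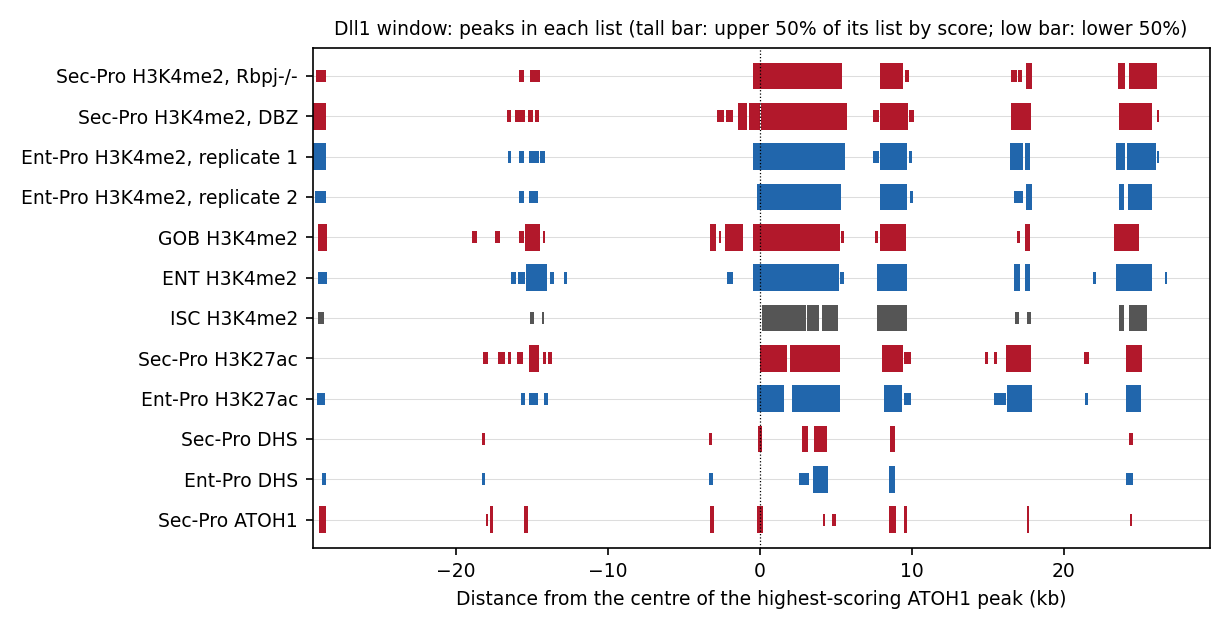
Peaks of the 12 lists in the Dll1 window, by distance (kb) from the centre of the highest-scoring ATOH1 peak (dotted line), drawn as tall bars for the upper 50% of each list by score and low bars for the lower 50%; red, Sec-Pro and GOB; blue, Ent-Pro and ENT; grey, ISC. At the dotted line a Sec-Pro DHS has no Ent-Pro counterpart, and the nearest Ent-Pro DHS is 2.43 kb away.

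**Figure D4:**
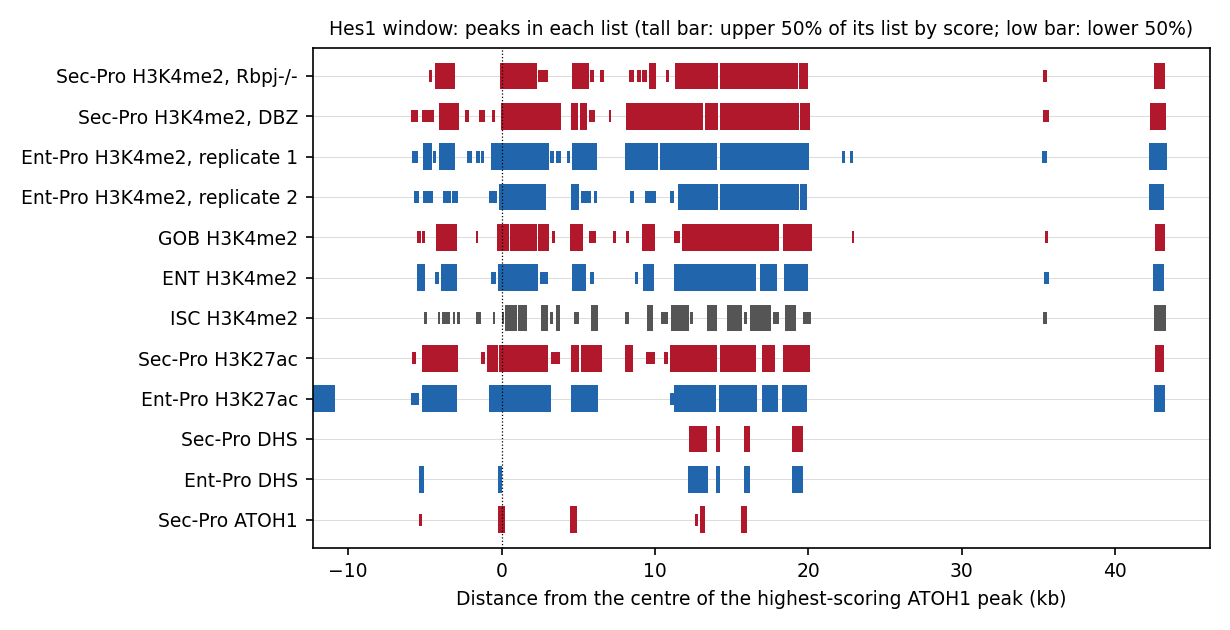
Peaks of the 12 lists in the Hes1 window, by distance (kb) from the centre of the highest-scoring ATOH1 peak (dotted line), with the same bars and colours as for Dll1. At the dotted line the DHS is in Ent-Pro and not in Sec-Pro, and the strong DHS and H3K27ac 12 to 20 kb to the right are in both.

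ATOH1 peaks were dense at both ligand genes. The Dll1 and Dll4 windows held 12 each, and the Hes1 window held 6. The mean 60 kb tile held 0.699, at least 12 were found in 20 of 20956 tiles (0.0954%), and at least 6 in 279 (1.33%). Those shares came from tiles not placed on genes and describe the loci only. The highest-scoring peaks were chr2:119147737-119148709 at Dll4, with a score of 145 and rank 42 of 15240, chr17:15508869-15509242 at Dll1, with a score of 138 and rank 52, and chr16:30050962-30051392 at Hes1, with a score of 66.6 and rank 276. Those of the ligand genes thus stood in the top 0.276% and 0.341% of the list and that of Hes1 in the top 1.81%.

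The remaining peaks were much weaker. At Dll1 the next 5 by score were chr17:15493526-15493815 (28.4), chr17:15518508-15518709 (19.3), chr17:15517510-15517973 (16.3), chr17:15505739-15506041 (12.9) and chr17:15480053-15480555 (11.9). At Dll4 the next 5 were chr2:119144040-119144305 and chr2:119154826-119155418 (20.8 each), chr2:119163082-119163713 (19.8), chr2:119149797-119150242 (11.9) and chr2:119152550-119152935 (7.31). At Hes1 the other peaks were chr16:30064091-30064429 (31.8), chr16:30055647-30056073 (16.4), chr16:30066807-30067141 (9.06), chr16:30063833-30064010 (5.58) and chr16:30045808-30045959 (3.77). The median score of the whole ATOH1 list is 6.47, and 5 of the 30 peaks of the 3 windows were in its top 10%.

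The ATOH1 sites were spread over all DHS classes, and a smaller share lay under neither DHS than in the whole list. Of the 30 ATOH1 peaks, 11 lay under a DHS of both progenitors, 2 under one of Sec-Pro alone, 4 under one of Ent-Pro alone and 13 under neither. Over all ATOH1 peaks these classes held 31.7%, 2.17%, 5.28% and 60.8%, so every class with a DHS held a larger share in these windows. The counts with a DHS in 1 progenitor alone are small, and the difference was not tested. A Sec-Pro DHS thus lay over 13 of the 30 and an Ent-Pro DHS over 15 (33.9% and 37% of all ATOH1 peaks). The top site of Dll4 was in the first class: its DHS ranked 9023 of 31980 in Sec-Pro (score 60.9) and 12554 of 38595 in Ent-Pro (score 38.6). The other ATOH1 peak with a DHS in Sec-Pro alone was also at Dll4, chr2:119149797-119150242, under a weak DHS with a score of 11.2 in the top 70.9% of its list. H3K27ac of Sec-Pro overlapped 21 and H3K27ac of Ent-Pro 24 of the 30 (47.7% and 51.4% of all ATOH1 peaks). The top site of each gene carried H3K27ac in both progenitors.

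**Figure D5:**
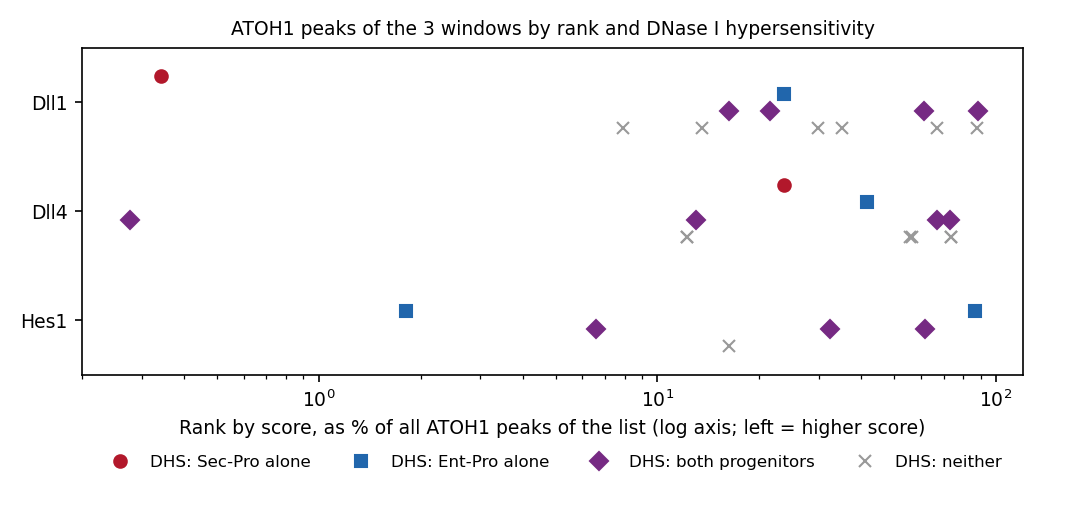
The 30 ATOH1 peaks of the 3 windows by rank in the ATOH1 list (% of the list, log axis, higher scores to the left), with symbols for the progenitor whose DHS overlaps them. The leftmost peak is in both progenitors at Dll4 (0.276%), in Sec-Pro alone at Dll1 (0.341%) and in Ent-Pro alone at Hes1 (1.81%).

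H3K4me2 at the ATOH1 sites was mostly common to all populations. All 7 lists overlapped 18 of the 30 peaks (33.1% of all ATOH1 peaks), among them the top site of each gene, and 2 peaks, both at Dll1, had no H3K4me2 in any list (31.6%). At the top site of Dll1 the ISC peak, chr17:15509196-15512064, reached over the end of the ATOH1 peak only. At 2 of the 30 the mark was in GOB and no other list (3.55% of all ATOH1 peaks), 1 at each ligand gene. At Dll1 the GOB peak was chr17:15505792-15506142 with a score of 12.9, and at Dll4 it was chr2:119157799-119158678 with a score of 15.3, both in the upper 50% of the GOB list. Each overlapped a DHS of both progenitors, with scores at Dll1 of 8.72 in Sec-Pro and 7.41 in Ent-Pro, and at Dll4 of 6.96 in Sec-Pro and 11.2 in Ent-Pro, all in the lower 50% of their lists.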

How the data were processed

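Crypts were collected with EDTA after the villi were taken off, and chromatin was fixed with formaldehyde and sonicated, per the labels' protocols. The submitters' processing notes name CASAVA 1.7, Bowtie 0.12.7, MACS2 and build mm9; settings for calling peaks are not given there. The authors deposited 1 list for each of 12 samples, with peak positions (0-based, printed here 1-based) and a score the files do not name; the 3 input samples were not analysed here. Nothing in the labels says that replicates came from separate animals, so their spread may be technical.

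Depth is unknown, so no interval on a peak could be given. Computed here with Python 3.11.15, NumPy 2.4.6 and SciPy 1.17.1 were the share of each window covered by peaks, overlaps of at least 1 bp, ranks within a list and the same measures over 60 kb tiles of the genome with H3K4me2. An upper 50% of a list means its upper 50% by score. Sec-Pro and Ent-Pro were compared with a two-sided exact permutation test over libraries, and other groups have 1 library. Alternatives were the upper 50% of peaks by score, lists cut to equal length, peaks within 1 kb merged, 10 kb off either window end, an overlap of 50%, central 200 bp of ATOH1 peaks, lists of like kind, and each replicate left out. The comparison of 3 libraries with 3 and tiles of the window's own length were added after seeing the data. Peaks named are the 6 highest-scoring ATOH1 peaks of a window, DHS and H3K27ac of 1 progenitor in the upper 50% of their list, and the highest-scoring and longest peaks, of which those that bear on a comparison are printed; shared DHS, peaks at a window edge and GOB peaks at ATOH1 sites were chosen after their values were seen. The genes, lists and tests were chosen with earlier results of these data known. Overlap and coverage code was tested on simulated lists of 1800 peaks and recovered 5 of 5 known answers. The code of the permutation test was not part of that check.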

Additional observations from a re-analysis of the deposited data

How the results depend on the processing

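No paired analysis was possible because only the Ent-Pro libraries carry replicate numbers in their labels. For Sec-Pro minus Ent-Pro, every difference at the 3 windows changed sign in at least 1 alternative. With 1 library left out in turn the differences ran from -1.28 to 4.8 points at Dll1, from -4.47 to 3.13 at Dll4 and from -5.81 to 4.06 at Hes1. Leaving 1 library out also leaves the kinds of list unbalanced. Within a kind, with 1 library per progenitor, the sign held at Dll1 (0.712 and 2.81 points) and at Hes1 (-0.351 and -1.4). At Dll4 the sign also turned in the 146 bp lists (1.01 points) and with GOB and ENT added (4.12), and at Hes1 in the upper 50% of peaks by score (0.517) and with GOB and ENT added (0.17). The cause was not tested. GOB minus ENT at Dll1, -0.822 points, turned to 0.715 in the upper 50% by score and to 1.21 with 10 kb off either window end. Both moves were smaller than the pooled SD of the progenitor libraries at Dll1 (3.63 points). GOB and ENT have 1 library each and so no spread of their own, and the progenitor libraries differ in kind of list. At Dll4 GOB minus ENT stayed positive. It widened to 18.2 points with peaks within 1 kb merged and to 19.6 with 10 kb off either window end. The mean of the other libraries minus ISC at Hes1 shrank to 0.575 points with merged peaks, against 10.4 before, and the cause was not tested.

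Counts of peaks moved as follows. With every list cut to its upper 50% by score, Sec-Pro alone had 2 H3K27ac peaks and 2 DHS, and Ent-Pro alone had 2 DHS. A peak whose counterpart lay in the lower 50% of the other list then counted as alone. Against the full Ent-Pro lists, 1 such H3K27ac peak and 1 such DHS of Sec-Pro were alone. Of the ATOH1 peaks 18 were left, of which 6 had a Sec-Pro DHS and 6 an Ent-Pro DHS in the upper 50% of its list. DHS in the lower 50% were not counted there. H3K27ac in Ent-Pro alone was 6 at 50% overlap, 2 with lists of equal length and 0 with trimmed windows, and DHS in Ent-Pro alone was 2 with trimmed windows. In tiles of the window's own length, 0.131% held as many ATOH1 peaks as the Dll4 window and 1.25% as many as the Hes1 window. Of the alternative values for the comparisons, 64 counted as kept. They were tested differences that kept the direction, counts that stayed within 1.5 times, and other shares that moved little. Little here means less than the pooled SD of the progenitor libraries in that window, which includes both sign changes of GOB minus ENT at Dll1. Another 13 moved further, and 10 tested differences changed sign. Of the alternative counts in single windows, 55 stayed within 1.5 times and 26 moved further. Without read numbers, a peak absent from a list cannot be told apart from one under its threshold.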
